A study of Homo sapiens with 12 samples.

Results

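The cells described here were the early-cycle cells of the control Nalm-6 library that carried few histone transcripts. Nalm-6 is a human cell line of precursor B acute lymphoblastic leukemia. Single-cell RNA-seq with a 10x Genomics 3′ assay was made from 2 libraries, a control library and a library labelled RUNX1, with 1 library per group and 72 h given for both. The control carried the Tet-On construct with an empty vector per its genotype label, while its title names DMSO and its labels give no doxycycline dose. The library labelled RUNX1 carried the same Tet-On construct with RUNX1 cDNA, induced with 500 ng/ml doxycycline. The series also holds 10 ChIP-seq samples, which were not used here.

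Cells were kept with more than 2000 and fewer than 6000 genes and under 20% mitochondrial transcripts, which left 5598 of 6073 control barcodes. UMIs (unique molecular identifiers, each counting 1 captured transcript) were summed over 2 gene sets per cell and scaled to 10000 UMIs. The M sum held CCNB1, CCNB2, CDC20, PLK1, AURKA, CENPF, HMMR and UBE2C, which act in mitosis. The P sum held MKI67, TOP2A, RRM2, TYMS, CENPF and CCNB1, which mark proliferating cells. The 20% of cells highest by M (12.9 or more) were left out and are called mitotic cells, 1120 in number. Of the rest, 1830 cells with 40 or more HIST1H4C UMIs per 10000 were left out as histone-high cells. The lowest 6% by P (up to 2.41) were left out as low-cycling cells, 336 in number. The remaining 2312 cells, 41.3% of the passing control cells, are called early-cycle cells. Over both libraries 10398 cells passed the filters.

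The cell cycle runs through G1, DNA replication in S phase, G2 and mitosis. At the passage into S phase, cyclin E with CDK2 relieves the block of the RB protein on E2F transcription factors, and E2F target genes for replication origins and forks are transcribed. Replication-dependent histone genes, such as the histone H4 gene HIST1H4C, are transcribed at high level only while DNA is copied. Genes of G2 and mitosis are transcribed later, through the MuvB complex with B-MYB and FOXM1, often at promoters with a CHR (cell cycle genes homology region) element. Leukemic precursor B cells in culture cycle continuously, so a single library holds cells of every phase.

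The early-cycle cells were shallower than mitotic and histone-high cells. Their median was 10970.5 UMIs and 3037 genes per cell, against 16257.5 UMIs and 3945 genes in mitotic cells, 13641 and 3474.5 in histone-high cells, and 9683.5 and 2703.5 in low-cycling cells. With every cell thinned to 8000 UMIs the medians were 2503, 2617, 2529 and 2403 genes in the same order. Levels are given as CPM, the summed UMIs of a set of cells per 1000000 UMIs of that set, which held 27181222 in early-cycle and 48572915 in left-out cells. Intervals are exact at 95% and cover counting error only. With 1 library per group no test was possible, and all contrasts are descriptions of these libraries. The cells were chosen by their transcripts, so a difference between early-cycle and left-out cells in the 13 genes of the rule is no finding. The genes that vary with those follow from the same choice.

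The line was a precursor B cell by its markers. All 13 annotated genes of the B precursor marker list reached 10 CPM in early-cycle cells, with a summed level of 5610 CPM against 6465 CPM in left-out cells. None of 7 T cell, 7 myeloid, 6 erythroid or 5 annotated stromal markers reached 10 CPM. CD3D, CD3E, CSF1R, S100A8, HBB and EPCAM were at 0 UMIs in early-cycle cells, where 3 UMIs would make up 0.110 CPM. Both libraries shared 12 barcodes, 10 of them among passing cells. Every passing control barcode also held mouse UMIs (the lanes were loaded with mouse cells too), which summed to 2.06% of the human UMIs in early-cycle cells, 1.72% in mitotic, 1.86% in histone-high and 2.27% in low-cycling cells. Their part in the results was not tested.

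Of CCNE2 and GNG11, named as marks of these cells, CCNE2 had its highest level in them and GNG11 did not. CCNE2 encodes cyclin E2, the partner of CDK2 at entry into S phase. Its level was 38.3 CPM in early-cycle cells (36.0 to 40.7), against 6.73 CPM in mitotic, 33.7 CPM in histone-high and 11.9 CPM in low-cycling cells. The log2 ratio over all left-out cells was 0.82 (0.70 to 0.95). It was 2.51 over mitotic cells (2.24 to 2.79) and 1.69 over low-cycling cells (1.24 to 2.17), but 0.18 over histone-high cells (0.05 to 0.31). CCNE2 therefore set these cells apart from mitotic and low-cycling cells and hardly from histone-high cells. With cells thinned to 8000 UMIs, 25.1% of 2059 early-cycle cells held a CCNE2 UMI, against 4.66% of 1073 mitotic, 22.8% of 1762 histone-high and 5.84% of 291 low-cycling cells. Without thinning the shares were 32.7% of early-cycle cells, 9.82% of mitotic, 35.0% of histone-high and 8.63% of low-cycling cells, where the histone-high cells are deeper. The libraries held no cell type that should lack CCNE2, so the share that free RNA gives is not known, and the lowest share seen was that of mitotic cells. CCNE2 overlaps INTS8 and NDUFAF6 on the other strand, and whether the counting used strand is not given in the sources used here.

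GNG11 (chr7:93551047-93557922, GRCh37, plus strand) encodes a gamma subunit of heterotrimeric G proteins. It stood at 34.9 CPM in early-cycle cells (32.7 to 37.2), against 26.6 CPM in mitotic, 27.04 CPM in histone-high and 58.6 CPM in low-cycling cells. Low-cycling cells were thus highest, early-cycle cells came next, and mitotic and histone-high cells were not separated by their intervals. The log2 ratio of early-cycle cells was 0.26 over left-out cells (0.14 to 0.38) and -0.75 over low-cycling cells (-0.97 to -0.52). A GNG11 UMI was found in 19.2% of thinned early-cycle cells, against 14.9% of mitotic, 15.8% of histone-high and 23.0% of low-cycling cells. At the same limits GNG11 was at 34.9 CPM in control early-cycle cells, against 3.88 CPM in those of the library labelled RUNX1, and with 1 library per group the condition and the library cannot be told apart. Of 15 measured genes for G protein subunits, 0 were past 0.5 on the log2 scale in either direction over left-out cells. Over all genes 0.507% were higher and 3.26% lower there, so nothing is read from this count. Over low-cycling cells 2 of the 15 were higher and 2 lower, beside 9.51% and 3.81% of all genes.

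**Figure D1:**
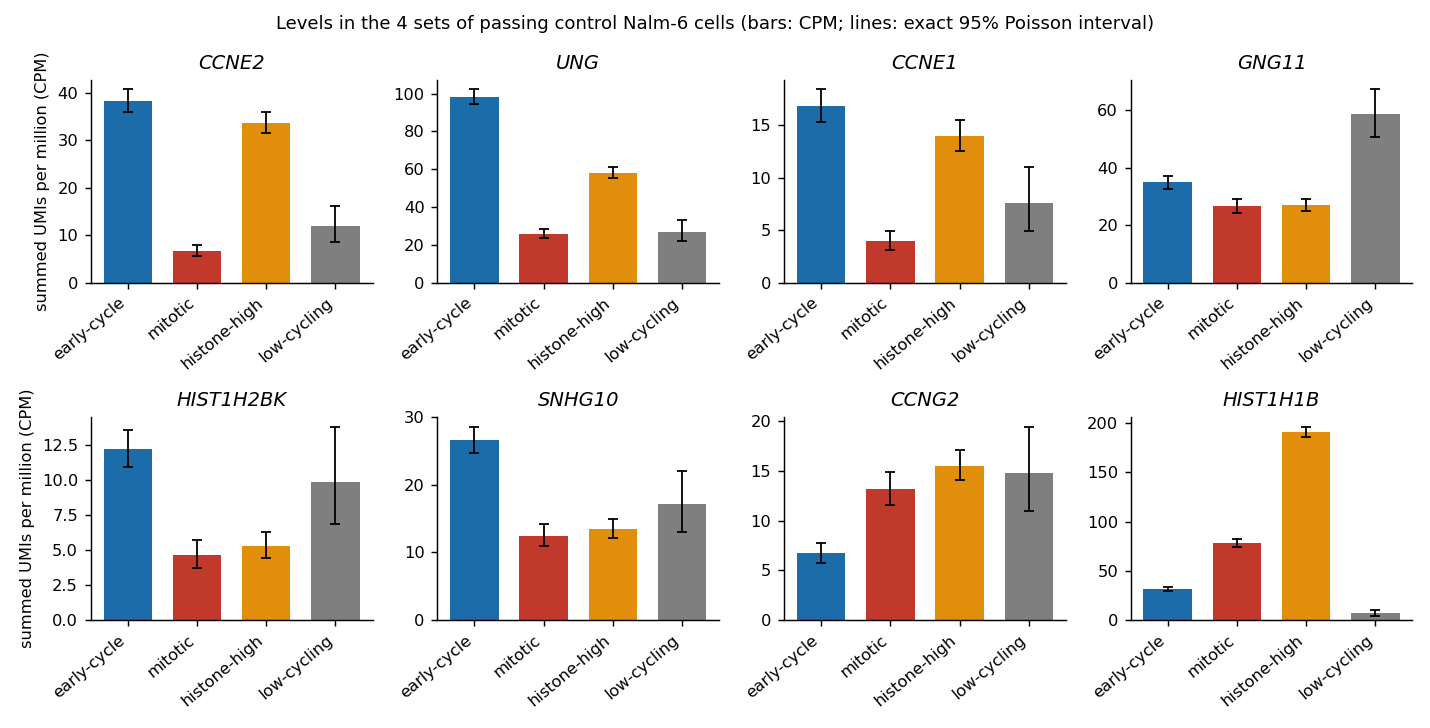
Levels of 8 genes in the 4 sets of passing control cells, in CPM, with early-cycle cells at the left. Bars give the level and lines the exact 95% Poisson interval. CCNE2 stood at 38.3 CPM in early-cycle and 33.7 CPM in histone-high cells, UNG was highest in early-cycle cells at 98.4 CPM, GNG11 was highest in low-cycling cells at 58.6 CPM, and CCNG2 was lowest in early-cycle cells at 6.70 CPM.

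Promoters are shown for genes higher or lower in early-cycle than in mitotic cells. The listed genes of the 2 phases differed in their promoter letters. Of the 53 genes on the list for licensing, origin firing and the replication fork (G1/S list), 44 matched a RefSeq promoter of 300 bases on build GRCh38.p14. An E2F-type motif (TTTCGCGC, TTTGGCGC, TTTCCCGC or TTTGCCGC, either strand) lay in the promoters of 28 of them, 63.6%. The share was 3.99% of all 27305 genes of the table, 7.84% of 6190 matched genes measured here, and 5.26% of 57 matched genes of G2 and mitosis. A CHR motif (TTTGAA or TTCGAA, either strand, neither kind holding the other) lay in 73.7% of the G2 and mitosis promoters and in 6.82% of the G1/S promoters, against 19.5% of all genes and 15.6% of those measured. The E2F-type letters were found in 1 of 2 UNG windows and in CDC6, GINS2 and E2F1, whose first base lies 63 bases before the start in UNG, at base 8 from the start in CDC6, 31 bases before it in GINS2, and 33 and 20 bases before it in E2F1. These 4 genes had a higher level in early-cycle than in mitotic cells, and CDC6, GINS2 and E2F1 were chosen after their values were seen. The shares above are over whole lists and not over genes that differed. Over mitotic cells 21 of 52 measured G1/S genes were higher by 0.5 or more on the log2 scale and 2 lower, beside 1.18% and 4.99% of all genes. The windows run from 100 bases before the start to 20 bases from it, 5′ to 3′, with E2F-type letters in capitals.
UNG (chr12:109098072-109098191, plus strand): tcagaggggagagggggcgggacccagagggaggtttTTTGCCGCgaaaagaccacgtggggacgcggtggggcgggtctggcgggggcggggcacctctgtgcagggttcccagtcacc
CDC6 (chr17:40287779-40287898, plus strand): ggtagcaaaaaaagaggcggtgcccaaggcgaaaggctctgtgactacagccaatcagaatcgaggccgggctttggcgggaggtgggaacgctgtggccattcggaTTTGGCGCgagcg
GINS2 (chr16:85688935-85689054, minus strand): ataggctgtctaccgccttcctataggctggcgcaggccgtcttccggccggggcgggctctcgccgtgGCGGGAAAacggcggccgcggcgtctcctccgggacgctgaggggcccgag
E2F1 (chr20:33686366-33686485, minus strand): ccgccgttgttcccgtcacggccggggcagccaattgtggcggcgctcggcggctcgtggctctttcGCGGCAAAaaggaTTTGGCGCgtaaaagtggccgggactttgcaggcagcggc

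Among the genes lowest in early-cycle cells, 4 with a CHR motif are shown in the same way, with CHR letters in capitals. Their first base lies 3 bases before the start in CDCA3, 29 in PSRC1, 20 in PIF1 and 18 in CENPA. KIF20A, CENPE and AURKB held none of these letters in this window, and a match is a description and not a bound site. CCNE1, GNG11 and DANCR held no E2F-type letters in their 300 bases.
CDCA3 (chr12:6851267-6851386, minus strand): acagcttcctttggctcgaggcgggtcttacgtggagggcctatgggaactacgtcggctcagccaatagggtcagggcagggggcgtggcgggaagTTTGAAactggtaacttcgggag
PSRC1 (chr1:109283126-109283245, minus strand): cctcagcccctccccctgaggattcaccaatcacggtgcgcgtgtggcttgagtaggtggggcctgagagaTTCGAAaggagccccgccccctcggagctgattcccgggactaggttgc
PIF1 (chr15:64825628-64825747, minus strand): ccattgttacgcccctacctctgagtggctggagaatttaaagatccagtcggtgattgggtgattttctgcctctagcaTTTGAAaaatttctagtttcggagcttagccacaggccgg
CENPA (chr2:26785956-26786075, plus strand): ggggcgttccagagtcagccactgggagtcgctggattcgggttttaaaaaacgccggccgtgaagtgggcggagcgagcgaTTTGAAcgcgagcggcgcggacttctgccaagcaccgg

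Over all left-out cells, 38 of 7495 genes at 10 CPM or more in either set (0.507%) were higher in early-cycle cells by 0.5 or more on the log2 scale, and 244 (3.26%) were lower. The median over all genes was -0.03. With totals that leave out mitochondrial and ribosomal protein genes the split was 86 higher and 239 lower. Over left-out cells more genes were lower than higher under both totals, which is a description of this choice of cells. Over mitotic cells 90 of 7601 genes (1.18%) were higher and 379 (4.99%) lower, the same change of totals gave 192 and 358, and TMM factors gave 143 and 293. Over histone-high cells 133 of 7478 genes (1.78%) were higher and 271 (3.62%) lower, or 235 and 271 with the other totals. Over low-cycling cells 717 of 7537 genes (9.51%) were higher and 287 (3.81%) lower, and the other totals gave 695 and 651. The rule used these contrasts, so nothing is read from the counts.

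Uracil DNA glycosylase, encoded by UNG, removes uracil from DNA during and after replication. UNG lies at chr12:109535402-109564530 (GRCh37, plus strand) and overlaps ACACB on the same strand. Its level was 98.4 CPM in early-cycle cells (94.7 to 102.2), against 25.8 CPM in mitotic, 58.2 CPM in histone-high and 26.998 CPM in low-cycling cells. No other set reached the level of early-cycle cells, and the log2 ratio over left-out cells was 1.18 (1.098 to 1.26). With cells thinned to 8000 UMIs, 50.1% of early-cycle cells held a UNG UMI, against 17.4% of mitotic, 32.7% of histone-high and 17.5% of low-cycling cells. CCNE1, the gene of cyclin E1 (chr19:30302898-30315219, GRCh37, plus strand), was at 16.8 CPM in early-cycle cells, against 3.92 CPM in mitotic, 14.0 CPM in histone-high and 7.55 CPM in low-cycling cells. Both E cyclins therefore had the same order of the 4 sets, with early-cycle and histone-high cells close together.

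Of the 52 measured G1/S genes, 5 were past 0.5 higher over left-out cells and 1 was lower, with a median of 0.05, beside 0.507% and 3.26% of all genes. The 5 were UNG, CCNE2, CCNE1, DTL (0.60) and GINS2 (0.57), of which the last pair was chosen after the values were seen. DTL guides a ubiquitin ligase to the licensing factor CDT1, and GINS2 is a subunit of the replicative helicase. CHTF18, of a clamp loader complex, was the 1 lower gene, at 17.0 CPM in early-cycle cells and 28.2 CPM in left-out cells (-0.73). The list parted the left-out sets. Over mitotic cells its median was 0.35 with 21 genes higher and 2 lower, over low-cycling cells 1.37 with 52 of 52 higher, and over histone-high cells -0.23 with 1 higher and 6 lower. Over all genes, 1.18% were higher and 4.99% lower than in mitotic cells, 9.51% higher than in low-cycling cells, and 1.78% higher and 3.62% lower than in histone-high cells. Of the licensing genes, MCM5, of the helicase ring, was at 171 CPM in early-cycle cells, against 78.8 CPM in mitotic, 176 CPM in histone-high and 63.6 CPM in low-cycling cells. CDC6, which loads that ring on origins, was at 79.5, 40.9, 84.5 and 21.8 CPM in the same order. Of the fork genes, PCNA, the sliding clamp, was at 326 CPM in early-cycle cells, against 204 CPM in mitotic, 428 CPM in histone-high and 102 CPM in low-cycling cells. CDC45, which joins the helicase at firing, was at 52.98, 40.4, 92.5 and 8.42 CPM in the same order. MCM5 and CDC6 thus stood level with histone-high cells, and PCNA and CDC45 below them. These 4 genes were chosen after their values were seen.

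Genes of nucleotide supply, without RRM2 and TYMS of the rule, had a median of -0.36 over histone-high cells, where 3 of 9 were lower, beside 3.62% of all genes. Over left-out cells 0 of the 9 were higher and 2 lower, with a median of -0.22, beside 0.507% and 3.26% of all genes. TK1, thymidine kinase, was at 78.4 CPM in early-cycle cells, against 107 CPM in mitotic, 162 CPM in histone-high and 16.5 CPM in low-cycling cells. SLBP, which binds the stem-loop of histone mRNA, was higher in early-cycle cells at 315 CPM, against 174 CPM in mitotic, 275 CPM in histone-high and 160 CPM in low-cycling cells. Of the 23 measured genes of histone RNA processing and histone chaperones, 0 were past 0.5 over left-out cells. The sets differed: over low-cycling cells 11 were higher and 0 lower, beside 9.51% and 3.81% of all genes. Over mitotic cells 4 were higher and 0 lower, beside 1.18% and 4.99%. Over histone-high cells 0 were higher and 1 lower, beside 1.78% and 3.62%.

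**Figure D2:**
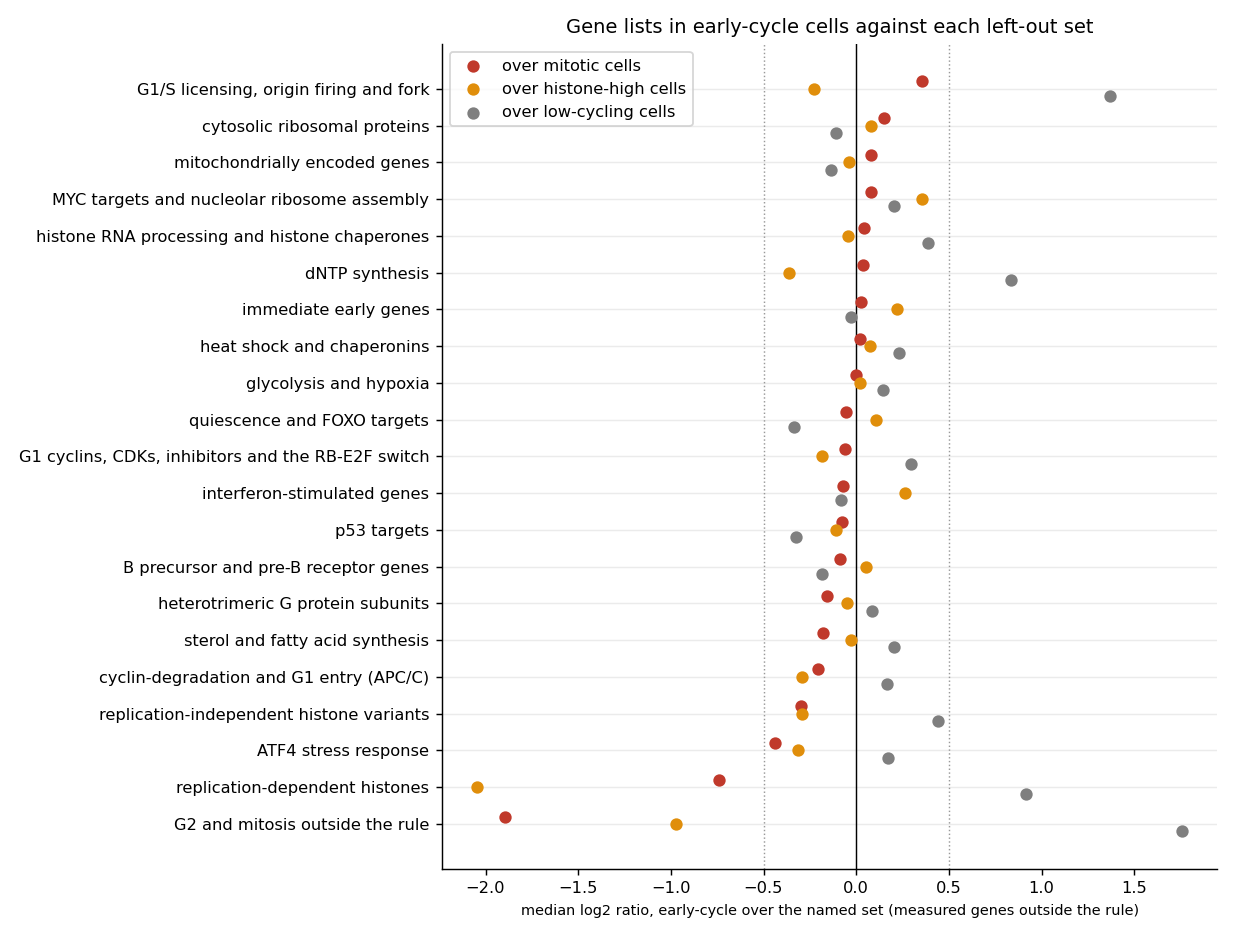
Median log2 ratio of the measured genes of each list outside the rule, early-cycle cells over mitotic (red), histone-high (orange) and low-cycling cells (grey); dotted lines mark -0.5 and 0.5. The G1/S list lay at 0.35, -0.23 and 1.37, replication-dependent histones at -0.74, -2.04 and 0.92, and genes of G2 and mitosis at -1.90, -0.97 and 1.76, while most other lists stayed inside the dotted lines.

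Histone transcripts other than that of the rule were also low, except against low-cycling cells. HIST1H4C itself, the gene of the rule (chr6:26104161-26104565, GRCh37), was at a median of 5.39 UMIs per 10000 in early-cycle cells, and 72.5% of these cells had fewer than 10. Only 66 cells (2.85%) had none. Without HIST1H4C, 16 of 17 measured replication-dependent histone genes were lower over left-out cells and 1 was higher, with a median of -1.54, beside 3.26% and 0.507% of all genes. Over histone-high cells 18 of 19 were lower with a median of -2.04, beside 3.62% of all genes. Over mitotic cells 9 of 11 were lower with a median of -0.74, beside 4.99%. Over low-cycling cells 7 of 8 were higher and 0 lower with a median of 0.92, beside 9.51% and 3.81% of all genes. These genes vary with HIST1H4C, so their counts are a description of the choice. HIST1H1B, a linker histone gene, was at 31.3 CPM in early-cycle cells, against 77.9 CPM in mitotic, 191 CPM in histone-high and 6.68 CPM in low-cycling cells. HIST1H2AJ was at 5.89, 15.2, 36.8 and 0.58 CPM in the same order. Most mRNAs of this family end in a stem-loop and lack a poly(A) tail, and the assay primes on poly(A), so these levels cover the captured part. Near-identical copies in the family may share reads, and single members are uncertain.

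The 1 histone gene of higher level was HIST1H2BK, an H2B gene at chr6:27114140-27114634 (GRCh37, minus strand), which in human cells also gives polyadenylated mRNA. Its level was 12.2 CPM in early-cycle cells (10.9 to 13.6), against 4.61 CPM in mitotic, 5.29 CPM in histone-high and 9.87 CPM in low-cycling cells. The ratio over left-out cells, 1.19 (0.95 to 1.43), was the highest of all measured genes, with UNG next at 1.18. Early-cycle and low-cycling cells were not separated (0.30, -0.21 to 0.86). Early-cycle cells were split into bands of rising HIST1H4C, from under 5 UMIs per 10000 (1081 cells) to 30 to 40 (214 cells). HIST1H2BK was at 15.2, 12.0, 8.07, 5.85 and 9.13 CPM over these bands, near the floor of 10 CPM. The interval of the last band (5.91 to 13.5, 25 UMIs) overlapped that of the first (13.1 to 17.6). HIST1H1B was at 8.62 CPM in the first band and 126 CPM in the last.

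Genes of G2 and mitosis outside the rule were lower over left-out cells in 61 of 64 cases, with a median of -1.32 and 0 higher, beside 3.26% and 0.507% of all genes. KIF20A, a kinesin of the spindle midzone, was at 2.21 CPM in early-cycle cells, against 29.5 CPM in mitotic and 9.67 CPM in histone-high cells, and had 0 UMIs in low-cycling cells, where 3 UMIs would make up 0.871 CPM. CENPA, the histone H3 variant of centromeres, was at 10.7 CPM in early-cycle cells, against 108 CPM in mitotic, 23.3 CPM in histone-high and 1.16 CPM in low-cycling cells. AURKB, a kinase of the chromosomal passenger complex, was at 21.0, 125, 77.2 and 4.06 CPM in the same order. Among 8 measured replication-independent histone variants, 3 were lower over left-out cells and 0 higher, against the same shares. They were CENPA, H2AFX, which marks DNA breaks when phosphorylated, and the linker variant H1FX, with H2AFX at 44.7 CPM in early-cycle cells, against 128 CPM in mitotic, 105 CPM in histone-high and 18.6 CPM in low-cycling cells. Of 14 measured genes of cyclin degradation outside the rule, 3 were lower over left-out cells and 0 higher, beside 3.26% and 0.507% of all genes, among them FZR1, the G1 activator of the anaphase-promoting complex, at 9.90, 22.4, 14.2 and 10.4 CPM in the same order. For the genes of G2 and mitosis, early-cycle cells stood between low-cycling and histone-high cells: 52 of 60 were lower over histone-high cells, beside 3.62% of all genes, and 48 of 54 higher over low-cycling cells, beside 9.51%. Outside the rule, the genes farthest above low-cycling cells were EXO1 (4.31, 2.94 to 6.19), NEK2 (3.70, 2.14 to 5.99), SPC25, CCNA2 and MELK, where low-cycling cells held few UMIs.

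Regulators of G1 were the measured G1 cyclins, CDKs, inhibitors and RB-E2F genes, and they had no shared direction over left-out or mitotic cells. Over left-out cells 2 of 28 were higher, both E cyclins, and 6 were lower, beside 0.507% and 3.26% of all genes. Over mitotic cells 3 of 28 were higher and 5 lower, beside 1.18% and 4.99%. Over histone-high cells 0 of 29 were higher and 8 lower, beside 1.78% and 3.62%. Over low-cycling cells 12 of 28 were higher and 1 lower, beside 9.51% and 3.81%. CCNG2, a cyclin linked to cell cycle arrest and a FOXO target (chr4:78078360-78354542, GRCh37, plus strand, with antisense neighbours), was lower than in each left-out set, at 6.70 CPM in early-cycle cells (5.76 to 7.74), against 13.2 CPM in mitotic, 15.5 CPM in histone-high and 14.8 CPM in low-cycling cells. Its log2 ratio over left-out cells was -1.12 (-1.37 to -0.89). CDKN2D, the CDK4 and CDK6 inhibitor p19, was at 15.6 CPM in early-cycle cells, against 28.9 CPM in mitotic, 22.9 CPM in histone-high and 18.3 CPM in low-cycling cells. CCND3, a D-type cyclin gene chosen after its values were seen, had 344, 309, 413 and 252 CPM in the same order. MXD4, a MYC antagonist, was at 31.8 CPM in early-cycle cells, against 16.9 CPM in mitotic, 22.1 CPM in histone-high and 79.3 CPM in low-cycling cells. It was among the 5 genes lowest over low-cycling cells, with GZMA, SLC2A3, RASAL3 and ANGPT2, and the ratios of the 5 ran between -2.08 and -1.32. Of 20 measured genes of quiescence and FOXO response, 9 were lower than in low-cycling cells and 0 higher, with a median of -0.33, beside 3.81% and 9.51% of all genes. Over all left-out cells 3 of 18 were lower, beside 3.26%, among them KLF6, a zinc finger factor, at 13.7 CPM in early-cycle cells, against 30.2 CPM in mitotic, 18.9 CPM in histone-high and 22.4 CPM in low-cycling cells.

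Growth genes lay slightly higher over left-out cells, and most so over histone-high cells. Of 32 measured MYC targets and nucleolar genes, all had a ratio above 0 over left-out cells with a median of 0.21 beside -0.03 for all genes. Only UTP20, a ribosome assembly factor, was past 0.5 (0.59), beside 0.507% of all genes. Over histone-high cells the median was 0.36 with 5 higher, beside 1.78% of all genes. Over mitotic and low-cycling cells it was 0.08 and 0.20 with 0 past 0.5, and members went down to -0.18 and -0.25. MYC itself was at 592 CPM in early-cycle cells, against 533 CPM in mitotic, 366 CPM in histone-high and 633 CPM in low-cycling cells. NPM1, a nucleolar chaperone, was at 3092 CPM in early-cycle cells and 2390 CPM in left-out cells. SNHG10, a long noncoding RNA that hosts a small Cajal body RNA and overlaps GLRX5, was at 26.6 CPM in early-cycle cells, against 12.5 CPM in mitotic, 13.5 CPM in histone-high and 17.1 CPM in low-cycling cells. SNHG3 and DANCR, which host small nucleolar RNAs, were chosen after their values were seen. SNHG3, which overlaps RCC1, was at 234.9 CPM in early-cycle cells, against 175.9 CPM in mitotic, 121 CPM in histone-high and 183 CPM in low-cycling cells. DANCR was at 537 CPM in early-cycle cells, against 374 CPM in mitotic, 299 CPM in histone-high and 502 CPM in low-cycling cells, so it hardly differed from low-cycling cells (0.10). The other genes among the 12 highest over left-out cells were CTA-29F11.1, L3MBTL3, HPDL, DDN, INA, PRKAG2-AS1 and RPRML, between 10.2 and 19.6 CPM in early-cycle cells with ratios of 0.74 to 1.04, near the floor of 10 CPM.

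The early-cycle cells were not uniform. Sorted by HIST1H4C, 1081 cells had under 5 UMIs per 10000, 596 had 5 to 10, 263 had 10 to 20, 158 had 20 to 30 and 214 had 30 to 40. CCNE2 over these bands was at 27.9, 40.7, 50.2, 54.1 and 51.1 CPM, and in histone-high cells at 44.6 CPM (40 to 60), 29.6 CPM (60 to 100) and 25.0 CPM (100 or more). CCNE2 was thus highest in the middle of the range, with the bands of 10 to 40 not separated by their intervals. UNG was at 76.6, 102, 137, 123 and 119 CPM in the early-cycle bands and 91.1, 46.5 and 25.9 CPM in the histone-high bands, again with the bands of 10 to 40 not separated. RRM2, the small subunit of ribonucleotide reductase and a gene of the rule, was at 53.2, 118, 196, 210 and 237 CPM, and at 233, 211 and 214 CPM in the histone-high bands. PCNA followed the same course, with 244 CPM in the lowest band, 472 CPM in the band of 30 to 40 and 391.6 CPM in the highest histone-high band.

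SNHG3, DANCR and SNHG10 ran the other way. SNHG3 was at 286, 244, 161, 153 and 142 CPM over the early-cycle bands and at 134, 119 and 91.0 CPM over the histone-high bands. DANCR was at 611 CPM in the lowest band, 391 CPM in the band of 30 to 40 and 243 CPM in the highest histone-high band. MYC was at 628, 506 and 322 CPM in these 3 bands, and SNHG10 at 35.5, 9.13 and 10.9 CPM. GNG11 stayed between 32.0 and 38.5 CPM over the early-cycle bands with overlapping intervals. RUNX1 was at 71.5 CPM in the lowest band and 84.7 CPM in the band of 30 to 40, with intervals of 66.8 to 76.5 and 74.2 to 96.3. Median depth moved with the bands, at 10490 UMIs in the lowest and 11919 in the band of 30 to 40, and its part in the trend was not tested.

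**Figure D3:**
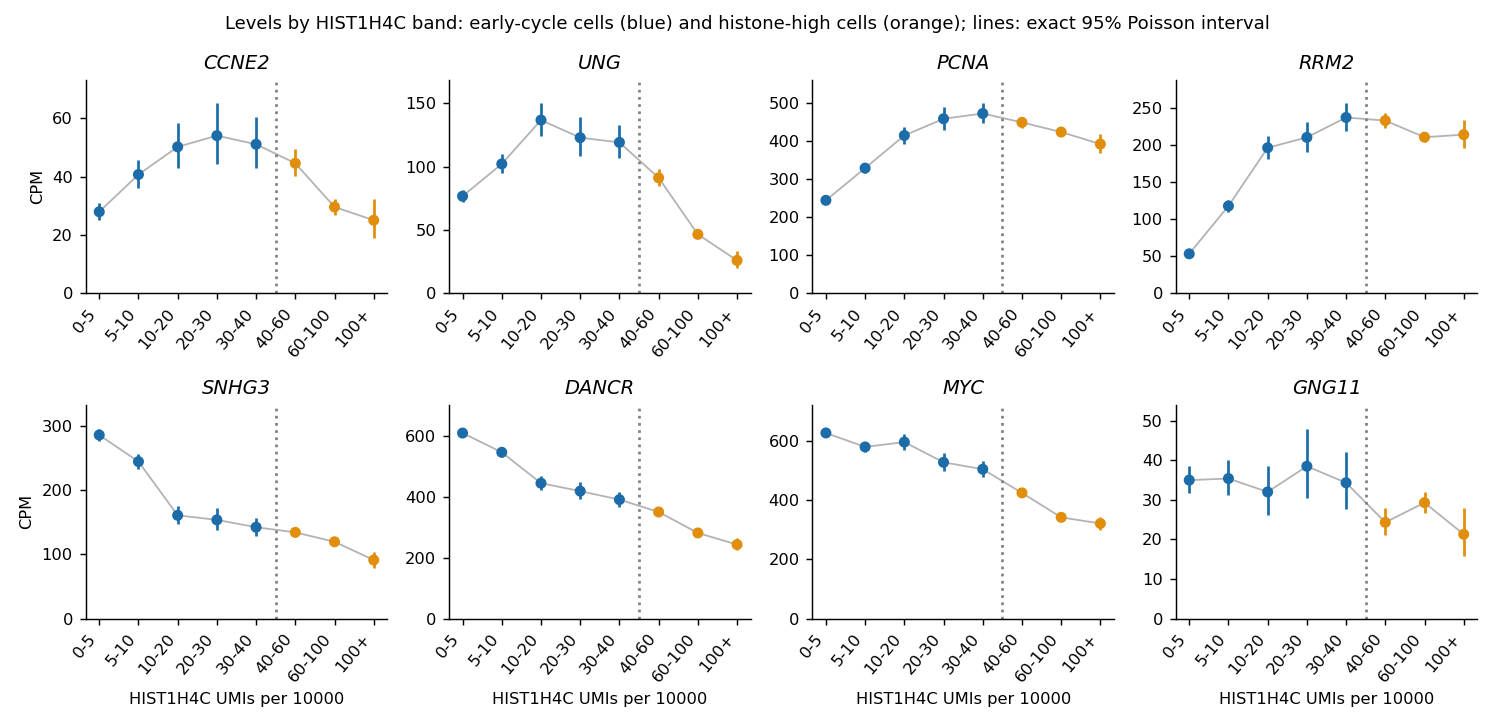
Levels in CPM of 8 genes over bands of HIST1H4C UMIs per 10000, for early-cycle cells (blue) and histone-high cells (orange), with exact 95% Poisson intervals; the dotted line marks the limit of 40. CCNE2 and UNG were highest over the bands of 10 to 40, whose intervals overlap, SNHG3 and DANCR went down across the bands, and GNG11 stayed between 32.0 and 38.5 CPM in early-cycle cells.

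The early-cycle cells were also sorted by their summed G1/S list, with the gene shown left out of the sum, and split into 4 groups of 578. CCNE2 was at 14.1, 33.8, 47.9 and 56.9 CPM over the 4 groups, lowest sum first, and UNG at 40.8, 85.3, 125 and 141 CPM. SNHG3 was at 334, 254, 191 and 165 CPM and MXD4 at 42.2, 30.9, 29.2 and 25.4 CPM. MYC hardly varied, between 586 and 610 CPM. Median depth was 10515, 11273, 11294 and 10796.5 UMIs in the 4 groups with CCNE2 left out, so it did not run with the order.

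At the limits of the rule, cells on either side were compared once. Just inside the HIST1H4C limit (30 to under 40, 214 cells) CCNE2 was at 51.1 CPM, and just outside (40 to under 50, 265 cells) at 49.5 CPM. TYMS was at 642 and 685 CPM in the same cells. Just under the M limit (169 cells) CCNE2 was at 11.2 CPM, DANCR at 569 CPM and CDK1, chosen after its values were seen, at 49.7 CPM, against 4.59, 474 and 126 CPM in the 275 cells just above it. The early-cycle cells with the most mitotic transcripts thus had less CCNE2 than the set as a whole. Just above the P limit (335 cells) MXD4 was at 48.3 CPM and GNG11 at 39.7 CPM, against 79.3 and 58.6 CPM in the 336 low-cycling cells.

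Phase scores from the usual S and G2/M gene sets, of which 42 and 54 genes were annotated, called 69.5% of thinned early-cycle cells S, 15.5% G1 and 15.0% G2/M. In mitotic cells the calls were 99.5% G2/M, in histone-high cells 49.1% S and 50.7% G2/M, and in low-cycling cells 87.3% G1. Without thinning 73.1% of early-cycle cells were called S, 17.4% G1 and 9.43% G2/M. The scores share genes with the rule and are relative to the other cells of the library, so they give no measure of DNA synthesis.

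The library labelled RUNX1 was not used to set the rule. Its cells were sorted by the same genes at the same absolute limits, so genes that vary with those follow from that choice too. RUNX1 itself was at 75.1 CPM in control early-cycle cells and 33.4 CPM in those of the library labelled RUNX1, lower and not higher under that label. The assay tags 3′ ends, and whether transcripts of the vector were counted was not tested, so these counts do not settle the label. At these limits 1114 of 4800 cells (23.2%) were early-cycle, 390 mitotic, 434 histone-high and 2862 low-cycling. Since most cells left out there were low-cycling, the pairwise contrasts are given. All 4 measured genes of the 5 highest outside the rule over mitotic cells (CCNE2, CCNE1, UNG, L3MBTL3 and FAM111B) were past 0.5 in the same direction, beside 1.59% of all genes. CCNE2 had a ratio of 2.51 in the control, against 2.26 in the library labelled RUNX1, and UNG had 1.93 and 2.37. Of the 5 lowest over mitotic cells 5 were past 0.5 lower, beside 6.13% of all genes.

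Over histone-high cells the UNG ratio was 0.76 in the control, against 1.25 in the other library, and CCNE2 had 0.18 and 0.24. Of the 5 highest genes over histone-high cells, 2 were measured and both were past 0.5 higher, beside 4.73% of all genes, and all 4 measured of the 5 lowest were past 0.5 lower, beside 5.23%. Over low-cycling cells 5 of the 5 highest were past 0.5 higher, beside 15.6% of all genes, and 4 of 4 measured among the 5 lowest were lower, beside 19.4%. HIST1H2BK had 1.20 and 1.11 over histone-high cells, but 0.30 and -0.76 over low-cycling cells. CCNG2 was lower in both libraries over each set, with -0.98 and -1.11 over mitotic cells, -1.21 and -1.07 over histone-high cells and -1.14 and -1.34 over low-cycling cells. For the G1/S list the medians were 0.35 and 0.39 over mitotic cells, -0.23 and -0.27 over histone-high cells and 1.37 and 2.31 over low-cycling cells. GNG11 was under the floor of 10 CPM in each set of the library labelled RUNX1, between 1.16 and 4.82 CPM.

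**Figure D4:**
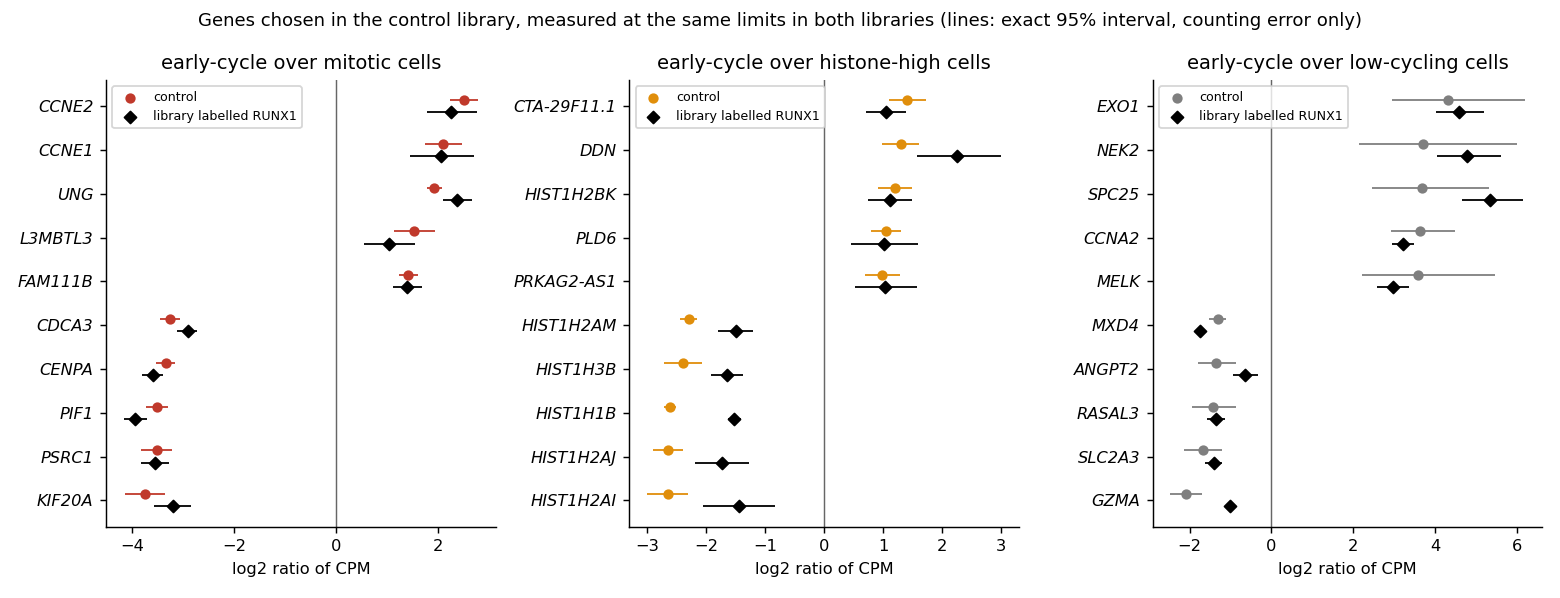
Log2 ratios of early-cycle cells over mitotic, histone-high and low-cycling cells for the 5 highest and 5 lowest genes chosen in the control (coloured circles), with the ratio at the same limits in the library labelled RUNX1 (black diamonds); lines are exact 95% intervals for counting error. CCNE2 lay at 2.51 and 2.26 over mitotic cells. The diamonds of all genes shown lay on the same side of 0 as the circles. Some genes were under 10 CPM in the second library. The same genes sorted the cells of both libraries, so genes that vary with them follow from that choice.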

How the data were processed

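Human UMI counts per gene and barcode were deposited by the authors as raw counts, made with Cell Ranger 3.0.2 on hg19 and mm10, from lanes of pooled human and mouse cells depleted of dead cells; their barcode tables also give human and mouse UMI counts. The human counts equalled the matrix totals for 6073 control barcodes. The study's methods describe DMSO for the control, the genotype label an empty vector. Those methods also give a shorter treatment time than the 72 h of the labels, and the removal of dead cells is taken from them. Groups followed the labels. The members, gene lists and named genes were chosen with earlier results of these data known.

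UMIs were summed per cell set and divided by totals (CPM, no pseudocount), keeping each gene that reached 10 CPM in 1 set or both, in Python 3.11.15 with scipy 1.17.1. Ratios carry exact conditional binomial, levels Poisson and shares Clopper-Pearson 95% intervals. The ratio step was tested on simulated data. Phases were scored with scanpy 1.11.5 on cells thinned to 8000 UMIs. No doublet caller was run. Alternatives covered scaling (edgeR 4.0.16 TMM among them), the floor, each limit of the rule, thinning, split UMIs and the deepest 5% of cells. Named were the rule's genes, CCNE2 and GNG11, the 12 highest and lowest outside the rule over left-out cells, 5 over each set, and up to 4 per list. Gene positions are from GENCODE on GRCh37. Promoters are RefSeq sequences.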

Additional observations from a re-analysis of the deposited data

Results flagged for a closer look

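TK1, thymidine kinase, had opposite signs in the same contrast of the 2 libraries. Its log2 ratio of early-cycle over left-out cells was -0.73 in the control, against 0.75 in the library labelled RUNX1, and this difference was not tested. The left-out cells were 336 low-cycling of 3286 in the control and mostly low-cycling (2862 cells) in the other library. Set by set the signs were the same: -0.45 and -0.30 over mitotic, -1.05 and -1.09 over histone-high, and 2.24 and 4.89 over low-cycling cells.

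Mouse UMIs, which no comparison used, were present in all 5598 passing control barcodes, with a median of 249 and a range of 55 to 497. They made up 1.88% of the UMIs of these barcodes.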

How the results depend on the processing

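Of the 118 named genes, 59 were past 0.5 over left-out cells; all 59 had the same sign under all 14 alternatives, and 51 stayed past 0.5 under all of them. DTYMK, UTP20, IGLL1, SESN2, DDB2, DDIT3, HSPA1B and DNAJB1 were the exceptions. The 59 include genes of the rule, such as PLK1 and TOP2A, whose lower level follows from the choice of cells. The same 59 include the genes named as highest and lowest outside the rule, which were picked for extreme ratios in this contrast. For both kinds of genes the stable sign was largely set by how they were chosen, so nothing is read from the tally for them. CCNE2 ranged between 0.67 and 1.02, UNG between 1.02 and 1.34, and GNG11 between 0.10 and 0.39. The median of the G1/S list over left-out cells, 0.05, ranged between -0.01 and 0.16. With each UMI assigned at random to choosing the cells or to measuring them, 51 genes were higher and 268 lower over left-out cells. Of 120 counts of genes under the alternatives, 87 were within 1.5 times the main count.

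The others follow as higher and lower. The floor of 1 CPM gave 406 and 552 over left-out, 547 and 895 over mitotic, 751 and 631 over histone-high, and 1666 and 1306 over low-cycling cells. The floor of 50 CPM gave 7 and 88, 31 and 139, 22 and 94, and 222 and 47 in the same order. A fold of 0.25 gave 352 and 908, 450 and 1586, 824 and 1082, and 1821 and 1019. Over mitotic cells, TMM gave 143 higher and median of ratios 144. Totals without mitochondrial and ribosomal protein genes gave 86, 192 and 235 higher over left-out, mitotic and histone-high cells, and 651 lower over low-cycling cells. Over low-cycling cells, a mitochondrial limit of 10% gave 174 lower, and the lowest 12% by P gave 462 higher and 108 lower. The floor and fold change how many genes can be counted; for the rest the cause was not tested. Without thinning, 17.4% of early-cycle cells were called G1, 73.1% S and 9.43% G2/M. A CCNE2 UMI was then found in 32.7% of early-cycle and 23.7% of left-out cells, and a GNG11 UMI in 24.3% and 22.9%.

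With 1 library per group, intervals cover counting error only, and the rule chose the cells by the same transcripts that the ratios measure. Doublets and free RNA were not removed. No paired analysis was possible because each group had 1 library and no result came from a test.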

Other observations

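IGLL1, part of the surrogate light chain of the pre-B receptor, was at 1226 CPM in early-cycle cells, against 1851 CPM in mitotic, 1876 CPM in histone-high and 905 CPM in low-cycling cells, and was the 1 gene of 30 measured B precursor genes past 0.5 over left-out cells (-0.55), where 3.26% of all genes were lower and 0.507% higher. VPREB1, the other part of that chain and chosen after its values were seen, was at 964, 1128, 995 and 1097 CPM in the same order. Among HIST1H4C bands IGLL1 was at 1173 CPM in the lowest early-cycle band and 2146 CPM in the highest histone-high band.

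Of 22 measured genes of the ATF4 stress response, 0 were past 0.5 higher and 3 lower over left-out cells, with a median of -0.31, and all 22 had a ratio below 0, beside 0.507% and 3.26% of all genes past 0.5 and a median of -0.03. Over mitotic cells 10 were lower with a median of -0.44, beside 4.99% of all genes. Over low-cycling cells 2 of 20 were higher and 1 lower with a median of 0.17, beside 9.51% and 3.81% of all genes. CHAC1, which breaks down glutathione, was at 6.66 CPM in early-cycle cells, against 12.4 CPM in mitotic, 14.8 CPM in histone-high and 5.81 CPM in low-cycling cells. In the library labelled RUNX1 the median of the list over mitotic cells was -0.15 with 0 lower, beside 6.13% of all genes there. Cytosolic ribosomal proteins (74 measured, median 0.09), mitochondrially encoded genes (13, -0.01), glycolysis (21, 0.00), sterol synthesis (28, -0.08) and interferon-stimulated genes (11, 0.05) had 0 members past 0.5 over left-out cells.

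Of 21 measured heat shock and chaperonin genes, 2 were lower and 0 higher over left-out cells, beside 3.26% and 0.507% of all genes. HSPA1B and DNAJB1, of the inducible response, were at 8.42 and 37.7 CPM in early-cycle cells, against 13.0 and 55.9 CPM in left-out cells. HSP90AB1 and HSPD1, constitutive chaperones, were at 2711 and 1365 CPM in early-cycle cells, against 2199 and 1117 CPM in left-out cells. Of 16 measured p53 targets, 2 were lower (SESN2 and DDB2) and 0 higher over left-out cells, beside the same shares, and of 12 immediate early genes 0 were past 0.5.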
